A study of Epimedium pseudowushanense with 3 samples.

Results

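The transcripts described here stayed within a set limit of their level in seeds of Epimedium pseudowushanense while the embryo grew, and were lower once the seeds germinated. They were chosen from the measured values themselves. A transcript was a member when its mean over the 3 libraries was at least 10 RPKM, when log2(RPKM + 1) differed by less than 1 between the first 2 stages, and when it was lower by at least 1 in germinating seeds than at the stage before. RPKM is reads per kilobase of transcript per 1000000 mapped reads, so levels can be set against each other between transcripts. The rule found 92 transcripts of the 178603 in the table, or 1.25% of the 7385 with a mean of at least 10 RPKM.

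The study sequenced total RNA of whole seeds, untreated as far as the labels say, at 3 developmental stages with 1 library each: seeds in which the embryo had begun to grow (onset stage), seeds whose embryo was longer than 0.5 of the seed (grown-embryo stage) and germinating seeds. The labels do not say how many seeds or plants gave each library. The read depth is unknown, and the RPKM of all transcripts summed to 538942 at onset, 626584 at the grown-embryo stage and 615633 at germination. Transcripts above 0 RPKM numbered 134657 at onset, 148343 at the grown-embryo stage and 87582 at germination. Counts of transcripts at 0 or under 1 RPKM at germination have to be read beside this lower number. Single libraries give no replicate check, so no p-value was computed, and stage cannot be told apart from seed lot or library preparation. Since the rule used all 3 values of each transcript, everything below about the levels of the members is a description. In whole seeds, fewer cells of a type and less RNA per cell cannot be told apart.

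Epimedium is a genus of perennial herbs of the barberry family, and its seeds are shed with a small embryo that has to grow inside the seed before germination. Where a physiological block to germination is present as well, the dormancy is called morphophysiological, and abscisic acid and gibberellins are the hormones with opposite roles in it, abscisic acid holding the seed dormant and gibberellins promoting germination. Seeds of many plants carry messenger RNAs made during maturation, among them those of storage proteins and of proteins protecting against drying, and many of these messages decline as germination proceeds. The table identifies transcripts by assembly number and does not pair these numbers with gene names, so no member can be assigned to such a class or to a hormone pathway.

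The members were lower at germination, and none of the 92 was listed at 0 RPKM there, so by these values they were reduced and not lost. A single member was under 1 RPKM in germinating seeds. The minimum of 10 RPKM largely decides this: with a minimum of 1 RPKM, 834 transcripts qualified, of which 602 were under 1 RPKM at germination and 85 were listed at 0. Among all 7385 transcripts with a mean of at least 10 RPKM, 40 (0.54%) were under 1 RPKM at germination and 4 were listed at 0. Nothing is therefore read from the absence of members at 0. The median member had 39.8 RPKM at onset, 35.4 RPKM at the grown-embryo stage and 12.7 RPKM at germination. The lowest and highest members had 8.78 and 3809 RPKM at onset, 11.01 and 3201 RPKM at the grown-embryo stage, and 0.84 and 1299 RPKM at germination. At 10 RPKM or more there were 89 members at onset, 92 at the grown-embryo stage and 54 at germination. At 100 RPKM or more there were 27, 28 and 9 in the same order of stages.

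**Figure D1:**
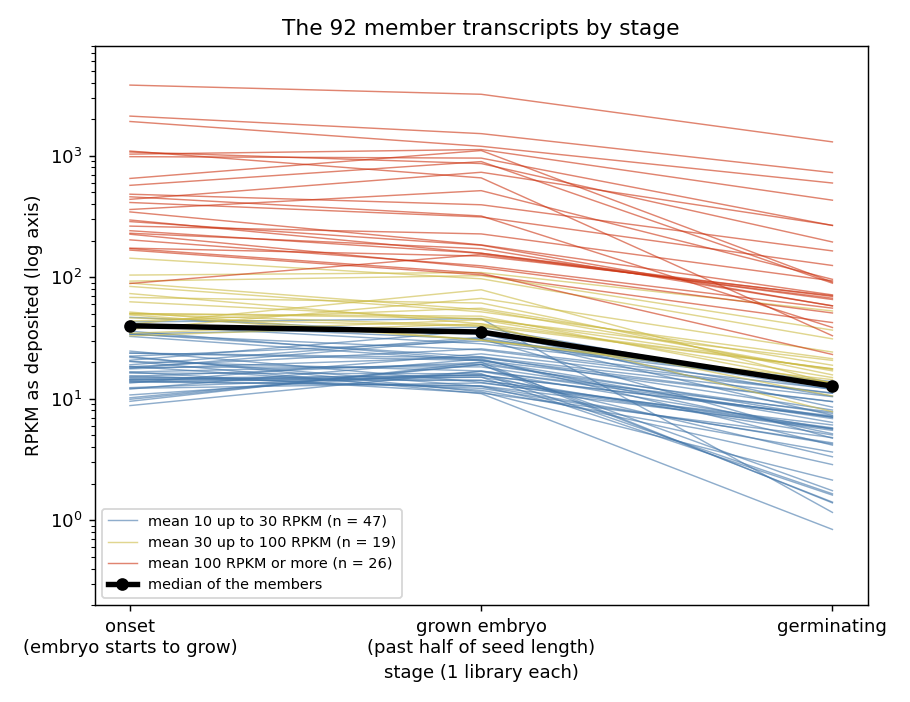
RPKM as deposited (log axis) of the 92 members at the 3 stages, 1 library each; each thin line is 1 transcript, coloured by its mean level, and the black line joins the medians of 39.8, 35.4 and 12.7 RPKM. Lines change little in median between the first 2 stages and run down to germination, where the lowest member has 0.84 RPKM.

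The germinating library held 33.0% of the summed RPKM that the members had at the grown-embryo stage. Their sum was 20262 RPKM at onset, 17678 RPKM at the grown-embryo stage and 5829 RPKM at germination. As a share of all RPKM of the library this was 3.76%, 2.82% and 0.947%. The 10 members with the highest grown-embryo value made up 67.5%, 69.2% and 68.5% of the members' sum, so the decline of the sum was mostly that of 10 transcripts. Without the highest member, a setting chosen after the values were seen, the shares of all RPKM were 3.05%, 2.31% and 0.736%.

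At the last step, between the grown-embryo stage and germination, the median difference of the members was -1.38 on the log2(RPKM + 1) scale, with an interquartile range of -1.85 to -1.14. Most members lay near the limit of 1. Of the 92, 56 had a difference of 1 to 1.5 in size, 17 of 1.5 to 2, 12 of 2 to 3 and 7 of 3 or more. A difference of 2 or more in size was thus found in 19 members (20.7%). It was found in 173 of the 333 transcripts with a mean of at least 10 RPKM that were lower by at least 1. Over all 7385 transcripts of that level, which were not chosen for a fall, the share was 2.34%. On the linear scale the median member kept 36.4% of its grown-embryo value, and the range ran from 2.55% to 49.9%. Fewer than 10% remained for 8 members and fewer than 25% for 24 members.

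By this size rule 333 transcripts, or 4.51% of the 7385 with a mean of at least 10 RPKM, were lower in germinating seeds than at the grown-embryo stage, and 542, or 7.34%, were higher. At the step before, 77% of the 7385 had stayed within 1. The members are the 27.6% of those 333 that had also done so. Both limits define the members and both steps share the grown-embryo library, so nothing is read from this share. All 7385 transcripts together had a median last-step difference of 0.08, and the median of the members minus this value was -1.47. Every one of the 92 members ranked lower among all transcripts at germination than at the grown-embryo stage, with a median rank of 6498 at germination and 2377 at the grown-embryo stage. The limit on the last step makes a lower rank likely, so nothing is read from these ranks.

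The first step was limited in size by the rule but not in direction. The members differed by a median of -0.14 between the grown-embryo and the onset stage, with an interquartile range of -0.57 to 0.32. Of the 92, 55 were lower with a grown embryo than at onset and 37 were higher, so 59.8% of members were below 0. Of the 7385 transcripts of that level, 31.5% were below 0, and their median was 0.30. Unlike the members, the 7385 were not limited in size at this step. The 5397 of them that stayed within 1 at both steps had a median of 0.19. No test of the members against these groups was possible. Both steps share the grown-embryo library, so an error in it would move them in opposite directions. A difference under 0.25 in either direction was found for 28 members (30.4%), and for 2050 of the 7385 transcripts (27.8%). The 2050 all lie among the 5686 of the 7385 that stayed within 1 at this step, as every member did. Set against those 5686 the share of the 2050 would be larger, so the members are not shown to be flatter. The lean toward lower values depended on which transcripts qualified. The same 92 had a median of -0.26 at this step after median-of-ratios rescaling. That rescaling divides each library by its median ratio to the geometric mean of all 3. The ratios are taken over all transcripts above 0 in every library, with no minimum level. The same members had -0.32 after scaling by trimmed mean ratios and -0.36 after setting the sums equal. The transcripts that qualified after median-of-ratios rescaling, a changed set, had 0.012.

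**Figure D2:**
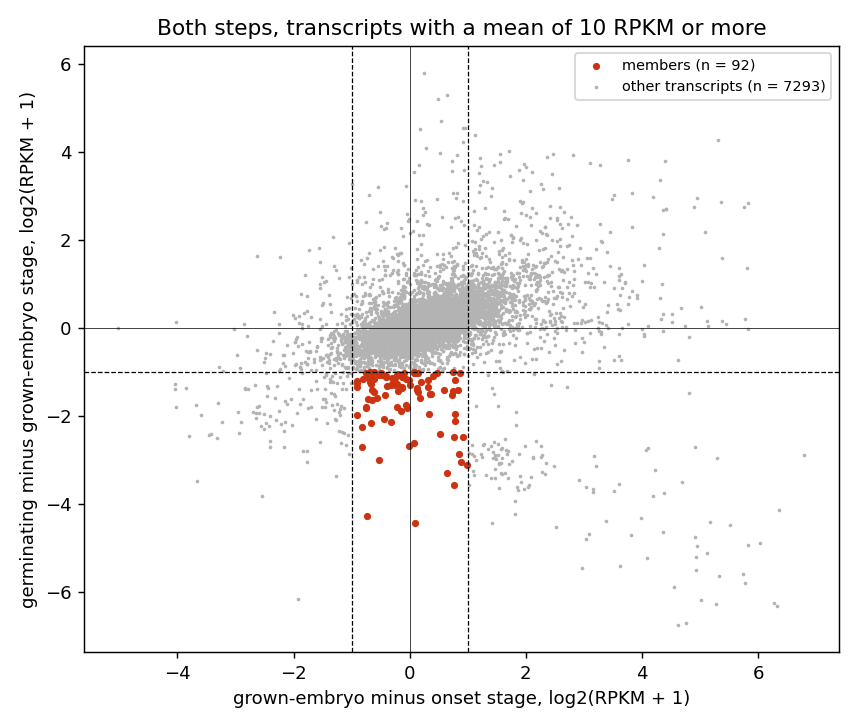
First-step difference (grown-embryo minus onset stage, x axis) against last-step difference (germinating minus grown-embryo stage, y axis), both in log2(RPKM + 1), for the 92 members (red) and the others of that minimum level (grey); dashed lines are the limits of the rule. Members crowd under the limit of -1 at the last step, and most of them, 55 of 92, lie left of 0 at the first step.

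Over the whole span from the onset stage to germination, 78 members (84.8%) were lower by at least 1 on the log2 scale, against 9.83% of the 7385 transcripts. The rule used both steps, so nothing is read from this count. The span difference ran from -5.01 to -0.16, with a median of -1.61, and its sign is fixed by the rule.

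The members reached into the most abundant transcripts of the seed. Those among the 100 most abundant of each library numbered 9 at onset, 10 at the grown-embryo stage and 2 at germination. The lower number at germination is largely set by the rule. Members made up 3.30% of the 787 transcripts whose mean reached 100 RPKM, and 1.00% of the 6598 with a mean of 10 to 100 RPKM. All transcripts lower at the last step were also more frequent in the upper class, with 74 of the 787 against 259 of the 6598. A mean of 100 RPKM or more was found in 28.3% of the members and in 31.0% of the 116 transcripts that were lower at both steps. It was found in 9.6% of the 125 transcripts that were higher and then lower, and in 10.7% of all 7385. The 26 members in the upper class were lower at the grown-embryo than at the onset stage in 20 cases, with a median first-step difference of -0.41. The 66 in the lower class were split 35 lower and 31 higher, with a median of -0.04. All 787 transcripts of the upper class had a median first-step difference of 0.51, and all 6598 of the lower class 0.27. These were not limited in size at that step. At the last step the medians of the members were -1.34 in the upper class and -1.42 in the lower one.

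The highest member had 3809 RPKM at onset, 3201 RPKM at the grown-embryo stage and 1299 RPKM at germination. It ranked 4, 7 and 24 among all transcripts at these stages, and 40.6% of its grown-embryo value remained. The next had 2117, 1519 and 726 RPKM, and the third 1911, 1194 and 596 RPKM. These 3 declined at each step and kept between 40.6% and 49.9% of the grown-embryo value, against a median of 36.4% over the members.

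Other very abundant members were reduced further. One had 1072 RPKM at onset, 861 RPKM at the grown-embryo stage and 195 RPKM at germination, where 22.6% of the grown-embryo value remained. Another was nearly level at first, with 982 and 955 RPKM, and had 266 RPKM in germinating seeds. A member with 650 RPKM at onset and 1102 RPKM at the grown-embryo stage had 91.1 RPKM at germination, which left 8.27% of its grown-embryo value. Members of similar abundance in seeds with a grown embryo thus had very different values in germinating seeds.

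**Figure D3:**
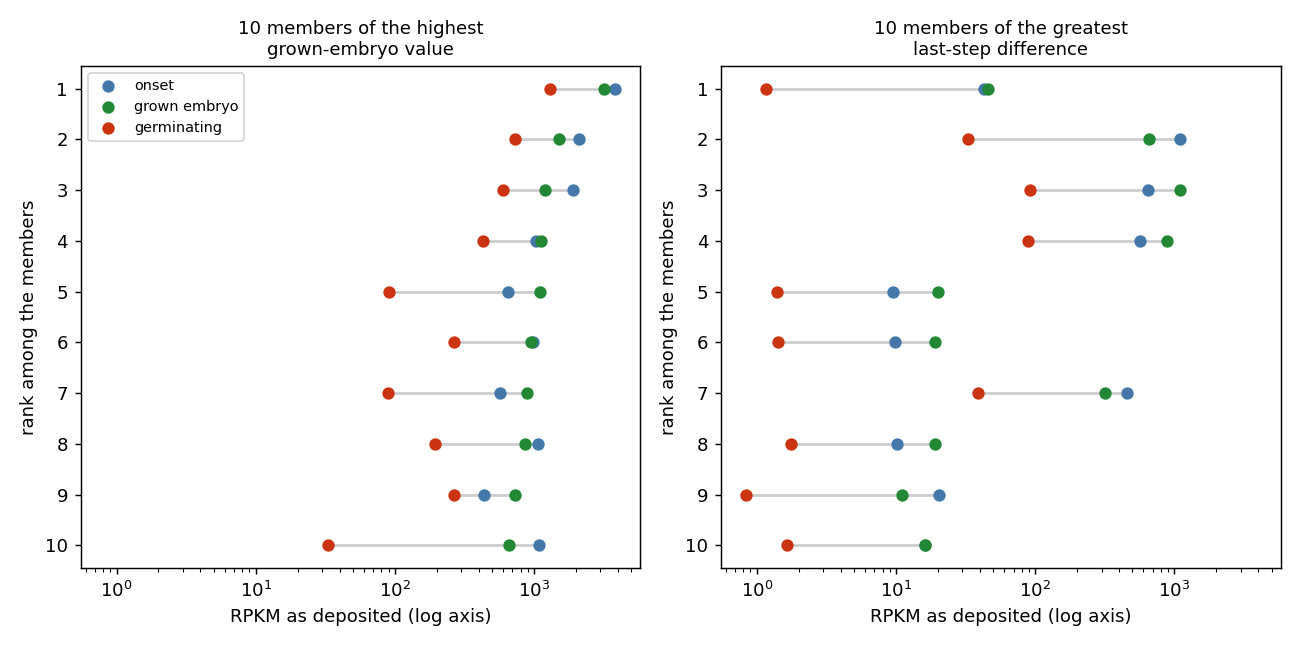
RPKM as deposited (log axis) at the 3 stages for the 10 members with the highest grown-embryo value (left) and the 10 with the greatest last-step difference (right), ranked downward. In the left panel the germinating points run from 33.0 to 1299 RPKM; in the right panel 6 of the 10 germinating points are under 2 RPKM.

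The greatest last-step difference belonged to comp26652_c0_seq1. It had 42.9 RPKM at onset, 45.6 RPKM at the grown-embryo stage and 1.16 RPKM in germinating seeds. Its first-step difference was 0.09 and its last-step difference -4.43, so it came closest to a level followed by a near complete loss, with 2.55% of the grown-embryo value remaining. How many reads lie behind its germinating value is unknown, since the table holds neither read totals nor transcript lengths.

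The next greatest difference was that of comp41999_c0_seq1, one of the most abundant transcripts of the early seed. It ranked 29 at onset with 1092 RPKM, stood at 657 RPKM with a grown embryo, and ranked 2899 with 33.0 RPKM in germinating seeds. Its differences were -0.73 and -4.27, and over the whole span -5.01, the greatest of the members.

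The other 8 of the 10 greatest differences fell into low and high levels. Of all 10, 5 had a mean under 12 RPKM and 4 a mean of at least 100 RPKM. One of the high ones had 570 RPKM at onset, 894 RPKM at the grown-embryo stage and 89.3 RPKM at germination. Another had 459, 319 and 38.6 RPKM. The low ones included a member with 9.52, 19.95 and 1.39 RPKM and a member with 20.3, 11.01 and 0.84 RPKM, the only one under 1 RPKM at germination.

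The last-step difference varied at every level among the 92 members. Its Pearson correlation with the log2 mean level was -0.11 and with the first-step difference -0.22, as descriptions across transcripts of the same 3 libraries, and the level and both differences share values. The 37 members that were higher at the grown-embryo stage had a median last-step difference of -1.46, and 33.7% of the grown-embryo value remained in the median. The 55 that were lower at the grown-embryo stage had -1.30 and 39.9%. Among the 19 members that were lower by 2 or more at the last step, 11 had been higher at the first.

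**Figure D4:**
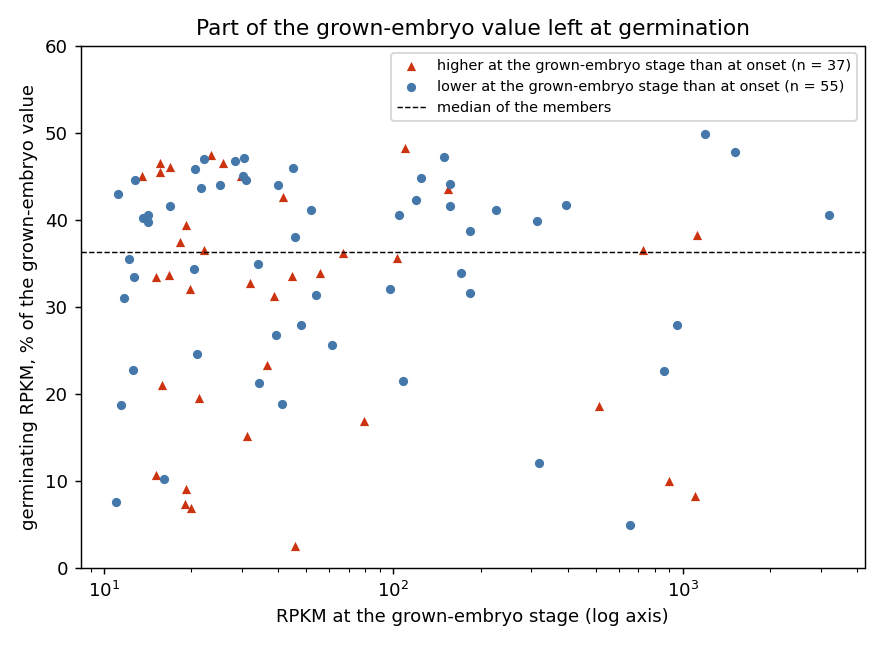
Germinating RPKM as a percentage of the grown-embryo value (y axis) against the RPKM at the grown-embryo stage (log axis) for the 92 members, split into the 37 that were higher and the 55 that were lower at the grown-embryo than at the onset stage; the dashed line is the median, 36.4%. The 8 members with under 10% left had grown-embryo values from 11.01 to 1102 RPKM.

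Many transcripts lay close to the limits of the rule. Just inside the limit of the last step was a member with 1911, 1194 and 596 RPKM (difference -1.002), and just outside it a transcript with 363, 283 and 142 RPKM (-0.99). Between 1 and 1.1 below the grown-embryo stage there were 19 members, and 33 further transcripts missed the limit by up to 0.1. At the first step the nearest member had 9.52 and 19.95 RPKM (0.99) and the nearest transcript outside 248 and 123 RPKM (-1.001). At the mean level the nearest were a member of 10.1 RPKM and a transcript of 9.93 RPKM. The minimum was set on the mean of all 3 libraries, so a transcript near 0 at germination needed higher early values to pass. With the minimum set on the highest library instead, 146 transcripts qualified, and 19 of these were under 1 RPKM at germination.

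Which transcripts qualified depended on the scaling of the libraries. Median-of-ratios rescaling, which raised the germinating library relative to the grown-embryo one, moved the median last-step difference of all 7385 transcripts to 0.40 and left 52 members, 45 of them among the 92. At the first step the median of all 7385 was 0.19 after this rescaling, 0.14 after trimmed means and 0.097 after equal sums. Trimmed means gave 107 members, 88 of them shared, and equal sums 89, 80 of them shared. Under the deposited values and these 3 scalings 43 transcripts were members throughout. Rescaling to the median of transcripts of 10 RPKM or more, chosen after the data were seen, gave 120 members, 79 of them shared. With that scaling added, 39 transcripts were members throughout. Of the 92, the last-step difference was still -1 or lower in 51 after median-of-ratios rescaling, 92 after trimmed means and 87 after equal sums.

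The members can be set beside the other transcripts of this level that were lower at the last step. The median part of the grown-embryo value remaining was 36.4% in the 92 members, 23.3% in the 116 transcripts lower at both steps and 8.44% in the 125 that were higher and then lower. A germinating value under 1 RPKM was found in 1.09%, 10.3% and 20.8% of these groups. A last-step difference of 2 or more was found in 20.7%, 34.5% and 91.2%. These 3 groups were all cut from the same values, so the differences between them were not tested.

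The identifiers, which the rule did not use, gave little further structure. Each of the 92 members came from its own assembly component, and the 7385 transcripts came from 7229 components. The sequence number within the component was above 1 for 25 members (27.2%), against 17.4% of the 7385 transcripts and 5.02% of the whole table. It was above 1 for 18.1% of the 116 transcripts lower at both steps and 20.8% of the 125 higher and then lower. These differences were not tested. A single pair of members had consecutive component numbers, and there were 2362 such pairs among the 7385 transcripts. The number of such pairs depends on the size of the set, so these 2 counts cannot be compared. There were 0 such pairs among the 116 transcripts lower at both steps and 2 among the 125 higher and then lower. In the pair of members, one had 361 RPKM at onset, 516 RPKM at the grown-embryo stage and 96.0 RPKM at germination, the other 570, 894 and 89.3 RPKM. The transcript with the number just before them, which is not a member, had 254, 1000 and 77.1 RPKM, and the one just after had 207, 345 and 478 RPKM. Whether these transcripts are related in sequence was not analysed here.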

How the data were processed

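Total RNA from whole seeds was extracted with TRIzol and sequenced as paired-end reads on an Illumina HiSeq instrument, 1 library per stage, per the labels' protocols. The deposited table gives RPKM values computed by the authors, printed to 2 decimals. R 3.1.0 was used, per the submitters' processing notes. The sources used here name no assembler, aligner, counting rule or filter. RPKM gives no read totals, so the depth is unknown and no counting interval was computed. Columns carry the titles of the libraries and were assigned by them.

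Differences were taken on log2(RPKM + 1) with Python 3.11.15, pandas 2.3.3 and numpy 2.4.6; the scale understates changes of low transcripts. The code of the rule was checked on simulated data with 200 changed transcripts. The read depth there was assumed and the libraries otherwise differed only by counting noise. The check therefore says nothing about which of the members would be found again. The members and the rules for description were chosen with earlier results of these data known. By identifier the text names the 2 members of the greatest last-step difference. By rank it draws on the 10 of the greatest difference, the 10 of the highest grown-embryo value and those nearest each limit. Members with neighbouring identifiers were picked after their values were seen. Without names, no gene list could be used. Alternatives changed the pseudocount, the minimum level, the size limits and the scaling (median of ratios over transcripts above 0 in every library, means of log ratios with 30% trimmed at each end, equal sums).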

Additional observations from a re-analysis of the deposited data

How the results depend on the processing

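Counts and shares were taken as moved beyond 1.5 times, and median differences beyond 0.1. Of 104 recomputed values, 67 stayed within these bounds, 31 moved and 6 changed sign; the last were all median first-step differences.

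The number of members was 3477 with no minimum, 834 with a minimum of 1 RPKM, 45 with 30 RPKM, 146 with the minimum on the highest library, 19 with a fall of at least 2, 48 within 0.5 at the first step and 52 with median-of-ratios scaling. Members under 1 RPKM at germination numbered 3245, 602, 0 and 19 under the first 4 of these, 0 within 0.5 at the first step, 2 with a pseudocount of 5, 3 with trimmed means and 3 after rescaling to the median of transcripts of 10 RPKM or more, an alternative chosen after seeing the data. Members listed at 0 numbered 2083 with no minimum and 85 with 1 RPKM.

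The median last-step difference was -1.14 with no minimum, -1.52 with the minimum on the highest library, -2.69 with a fall of at least 2 and -1.54 with median-of-ratios scaling. The median first-step difference turned to 0.023 with a pseudocount of 5, 0.75 with no minimum, 0.22 with 1 RPKM, 0.040 with the minimum on the highest library, 0.086 with a fall of at least 2 and 0.012 with median-of-ratios scaling, and was -0.31 with 30 RPKM. Its sign therefore depends on these settings.

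The members' shares of the summed RPKM at the onset, grown-embryo and germinating stages were 0.870%, 0.768% and 0.0996% with a fall of at least 2, 2.19%, 1.62% and 0.627% within 0.5 at the first step, and 1.61%, 1.44% and 0.326% with median-of-ratios scaling. The first 2 of these settings leave fewer members by construction. Scaling divides all values of a library by the same number, so it moved the shares only through which transcripts qualified. Weak transcripts enter when the minimum is lowered, and how many reads lie behind values under 1 RPKM is unknown. No paired analysis was possible because each stage had 1 library, so no replicate could be left out either.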

Other observations

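The part of the grown-embryo value left at germination was grouped into classes chosen after the values were seen, as a description. Among the 92 members, 1 kept under 5%, 10 from 5% to under 15%, 13 from 15% to under 25% and 68 (73.9%) more than that. Of the 10 with 5% to under 15%, 6 were higher at the grown-embryo stage than at onset. The member nearest to the limit of the first step, with 9.52, 19.95 and 1.39 RPKM, is one of them. Among the 125 transcripts that were higher and then lower, 36 (28.8%) kept under 5%, 77 (61.6%) from 5% to under 15%, 2 from 15% to under 25% and 10 more than that. The 77 had a median first-step difference of 1.70, and their medians were 8.40 RPKM at onset, 30.2 RPKM at the grown-embryo stage and 2.84 RPKM at germination. Among the 116 transcripts lower at both steps, 3 kept under 5%, 21 (18.1%) from 5% to under 15%, 37 from 15% to under 25% and 55 more than that.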
